A study of Mus musculus with 4 samples.

Results

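The genes described here encode the vacuolar proton pump and the cathepsins, the acid-producing machine and the protein-cutting enzymes of the lysosome. A gene was a member if its symbol begins with Atp6v0 or Atp6v1, or consists of Cts and exactly 1 further letter. The array annotation named 39 such genes among 19505, of which 22 were pump genes (8 Atp6v0 and 14 Atp6v1) and 17 were cathepsins, each with 1 probe set. Atp6v1fnb is counted because its symbol fits, although it is a neighbour of Atp6v1f and not a pump subunit. Atp6v0c and Ctsd were not analysed here because the annotation paired no probe set with them.

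RNA from the fat beside the epididymis of male mice was hybridised to Clariom S Mouse arrays. The 4 groups had 1 array each. They were GW4869 with muscle overload, GW4869 with sham surgery, vehicle (DMSO) with muscle overload, and vehicle with sham surgery. GW4869 inhibits the release of extracellular vesicles, and overload was produced by synergist ablation, in which the muscles that share a muscle's work are removed. The sources used here do not give strain, age, dose or time after surgery, or say if RNA was pooled over mice. The study asked whether vesicles from overloaded muscle act on fat.

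The proton pump has a soluble part, V1, that splits ATP and a membrane part, V0, that carries protons into the lysosome. Several subunits exist in forms encoded by separate genes, some found in most cells and some in acid-secreting, nerve, germ or bone-resorbing cells. The acid lets cathepsins mature and work. In fat, adipocytes use lysosomes for turnover of their contents, and macrophages that take up lipid expand them.

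Values are the log2 expression levels that the authors deposited. They run up to 19.93, above what an array scanner usually records, and the step that produced this range was not identified, so a fold here is a fold on the deposited scale. A background limit of log2 6.40 was taken as the highest, over the 4 arrays, of the 95th percentile of 23 antigenomic background rows. The brightest single background row reached 7.20, so readings between these values are weakly separated from background. Before subtraction, any reading below the limit was set to the limit, which leaves only a lower bound on the difference, given as "at least". A member was called higher or lower where 2 arrays differed by 1.5-fold or more, which is 0.58 on the log2 scale. There is no replicate error and no test, and having 4 arrays limits how precise any value can be.

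The arrays carried fat RNA, since all 17 measured adipocyte markers were above the limit on each, but also RNA of the male tract. Sperm and testis genes were above the limit for 3 of 15 markers on GW4869 overload, 0 on GW4869 sham, 0 on vehicle overload and 15 on vehicle sham. Epididymal genes were above it for 14 of 18 on GW4869 overload, 3 on GW4869 sham, 1 on vehicle overload and 7 on vehicle sham. In each comparison at least 1 array therefore held tract RNA. Its part in the differences below was not tested. No comparison can be made without GW4869 overload and vehicle sham, the arrays with most tract markers above the limit. GW4869 sham and vehicle overload share neither drug nor surgery. Smooth muscle markers had mean log2 levels of 9.86 on GW4869 overload, 12.28 on GW4869 sham, 7.70 on vehicle overload and 12.17 on vehicle sham.

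Of the 39 members, 23 were above the limit on all 4 arrays, 3 on 3 arrays and 13 on none. Apart from Atp6v0d2, above the limit on all 4 arrays, and Atp6v1g2, above it on 3, the members detected were listed as broadly expressed forms. Broad is a list label here, and it takes in Ctss and Ctsk, described below with antigen-presenting cells and osteoclasts. All 6 measured V0 genes listed as broad and all 8 such V1 genes were above the limit on every array, except Atp6v0b on vehicle sham. The same held for the broad cysteine cathepsins and Ctsa, except Ctsk on vehicle sham. The third member below the limit on 1 array was Atp6v1g2, the G subunit form best known from brain, also on vehicle sham. The lysosomal endopeptidase genes Ctsb and Ctsl varied little. Ctsb had log2 levels of 18.43 on GW4869 overload, 18.41 on GW4869 sham, 18.17 on vehicle overload and 18.11 on vehicle sham. Ctsl had 14.31, 14.17, 13.98 and 13.87 on the arrays in that order. The highest and lowest arrays thus lay 0.33 apart for Ctsb and 0.44 for Ctsl, below the 1.5-fold threshold in every comparison.

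**Figure D1:**
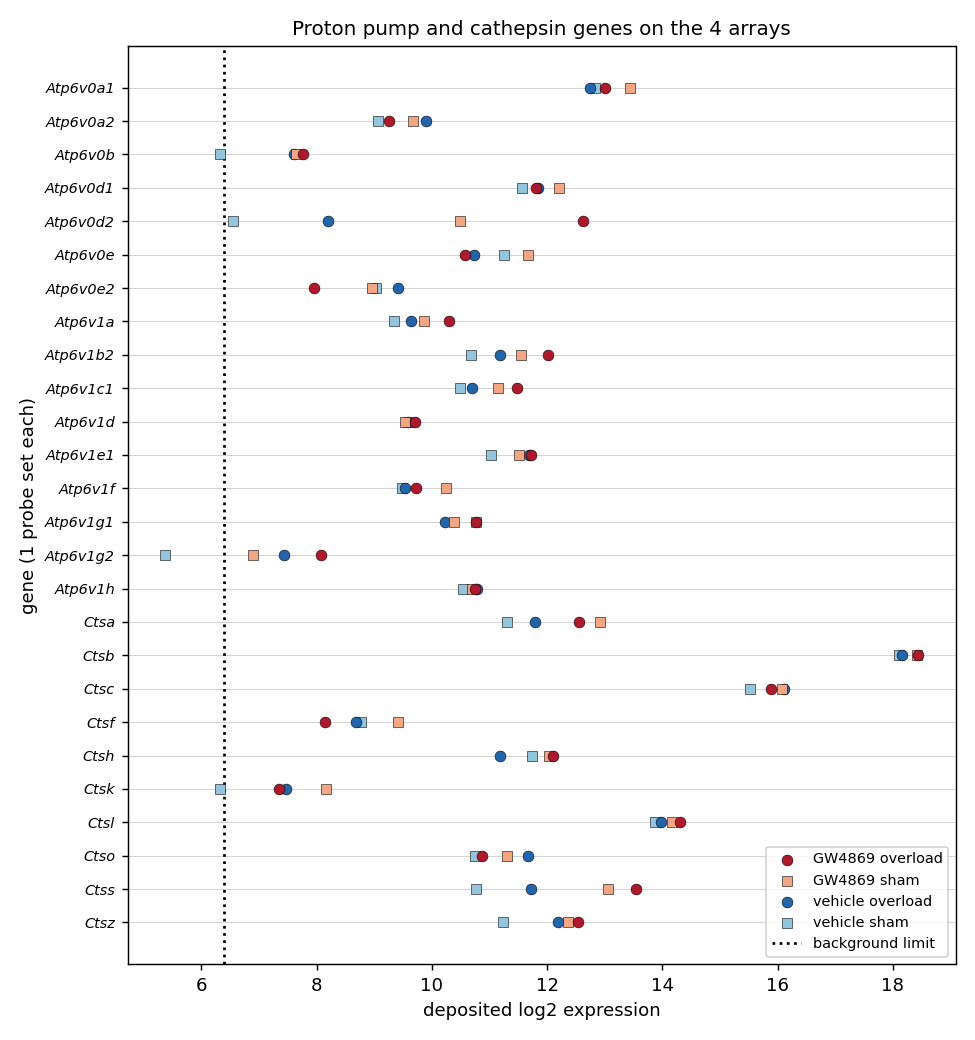
Deposited log2 expression (horizontal axis) of the 26 members above the background limit (dotted line, 6.40) on at least 3 arrays, with 1 point per array and no replicates. Vehicle sham (light blue squares) is the lowest point for 19 of the 26 genes, and Atp6v0d2 spreads most widely, between 6.55 and 12.62.

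Among the 26 members whose mean lay above the limit, vehicle sham was the lowest array for 19 (73.1%) and GW4869 overload the highest for 13 (50.0%). Among all 8795 genes with such a mean, vehicle sham was lowest for 48.4% and GW4869 overload highest for 27.1%. GW4869 sham was lowest for 1 member, Atp6v1d, and vehicle sham was highest for 1, Atp6v1g1.

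Many lysosomal genes carry near their start sites a palindrome bound by TFEB and its relatives MITF and TFE3, which switch on lysosome production. The promoter windows below are shown because they hold that letter pattern or, for Ctss, one bound by the macrophage factor PU.1. Windows were from RefSeq (GRCm38.p6), run from 250 bases before to 50 bases after a start, and were found for 29 of the 39 members. TCACGTGA, which reads the same on both strands and contains CACGTG, occurred in windows of 4 of these 29 members (13.8%), against 1.12% of 27025 genes. CACGTG alone occurred for 7 members (24.1%) and 8.09% of genes. GAGGAAGT, searched on both strands, occurred for Ctsc and Ctss (6.90% of the 29) and 3.69% of genes. Capitals mark TCACGTGA in the 4 first windows and GAGGAAGT, on the opposite strand, in the last. Each window is written along its gene.
Ctsa, chr2:164833523-164833822, plus strand: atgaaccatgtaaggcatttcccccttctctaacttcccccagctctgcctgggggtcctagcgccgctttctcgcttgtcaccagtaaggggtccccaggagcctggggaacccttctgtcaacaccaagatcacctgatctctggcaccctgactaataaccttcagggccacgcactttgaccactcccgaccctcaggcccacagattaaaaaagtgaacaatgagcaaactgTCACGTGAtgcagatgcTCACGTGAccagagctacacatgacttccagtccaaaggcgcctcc
Atp6v0d1, chr8:105566015-105566314, minus strand: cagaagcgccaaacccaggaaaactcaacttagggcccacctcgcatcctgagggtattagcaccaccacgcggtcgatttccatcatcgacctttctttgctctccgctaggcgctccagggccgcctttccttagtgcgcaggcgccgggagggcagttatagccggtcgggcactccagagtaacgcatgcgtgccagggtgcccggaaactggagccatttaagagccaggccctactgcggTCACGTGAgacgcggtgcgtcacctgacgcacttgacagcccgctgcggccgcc
Atp6v0e, chr17:26676146-26676445, plus strand: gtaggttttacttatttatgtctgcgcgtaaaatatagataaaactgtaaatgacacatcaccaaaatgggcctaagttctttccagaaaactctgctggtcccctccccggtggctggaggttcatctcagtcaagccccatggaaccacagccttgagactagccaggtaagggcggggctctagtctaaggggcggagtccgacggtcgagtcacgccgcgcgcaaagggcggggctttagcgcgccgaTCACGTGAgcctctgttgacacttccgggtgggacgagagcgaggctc
Atp6v1a, chr16:44139210-44139509, minus strand: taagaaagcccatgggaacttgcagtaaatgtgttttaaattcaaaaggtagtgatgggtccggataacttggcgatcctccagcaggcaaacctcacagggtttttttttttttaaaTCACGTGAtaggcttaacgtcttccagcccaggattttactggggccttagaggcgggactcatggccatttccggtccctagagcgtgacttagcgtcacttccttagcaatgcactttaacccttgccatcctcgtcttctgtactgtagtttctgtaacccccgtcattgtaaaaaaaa
Ctss, chr3:95526536-95526835, plus strand: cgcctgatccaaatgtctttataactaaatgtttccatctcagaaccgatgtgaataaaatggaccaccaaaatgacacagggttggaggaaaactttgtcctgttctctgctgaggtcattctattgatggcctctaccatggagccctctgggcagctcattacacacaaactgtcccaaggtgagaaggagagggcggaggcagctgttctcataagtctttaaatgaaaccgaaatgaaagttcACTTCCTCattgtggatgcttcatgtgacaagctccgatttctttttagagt
The window of Ctsa holds the palindrome 2 times. A match describes letters, not binding. Between GW4869 and vehicle, Ctsa differed by 0.76 in overloaded and 1.61 in sham mice, and Atp6v0d1 by -0.04 and 0.64. Atp6v0e differed by -0.16 and 0.41, and Atp6v1a by 0.65 and 0.53. Of the genes with GAGGAAGT, Ctss differed by 1.82 and 2.30. Ctsc, whose window is not shown, differed by -0.23 and 0.56 and was called in neither comparison.

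Under GW4869 in sham mice, 13 members were higher than under vehicle and 0 were lower. The pump gene Atp6v0d2 and the cathepsin genes Ctss, Ctsk and Ctsa had the largest differences. By the same rule 13.1% of all named genes were higher and 8.43% lower. The members' share was 33.3% of 39, or 50.0% of the 26 with a mean above the limit, where 28.5% of genes were higher and 10.6% lower. The median difference was 0.45 for the 22 pump genes and 0.29 for the 17 cathepsins, against 0.00 for all named genes. Over genes with a mean above the limit these medians were 0.56 and 0.61, against 0.29.

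Under GW4869 in overloaded mice, 8 members were higher than under vehicle and 3 were lower, against 8.17% and 8.4% of all named genes. The members' shares were 20.5% and 7.69%. Among genes with a mean above the limit, 16.1% were higher and 18.4% lower, and among the 26 members 30.8% and 11.5%. The median difference was 0.02 for pump genes and 0.00 for cathepsins, or 0.17 and 0.30 over those with a mean above the limit, against -0.05 for all such genes.

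**Figure D2:**
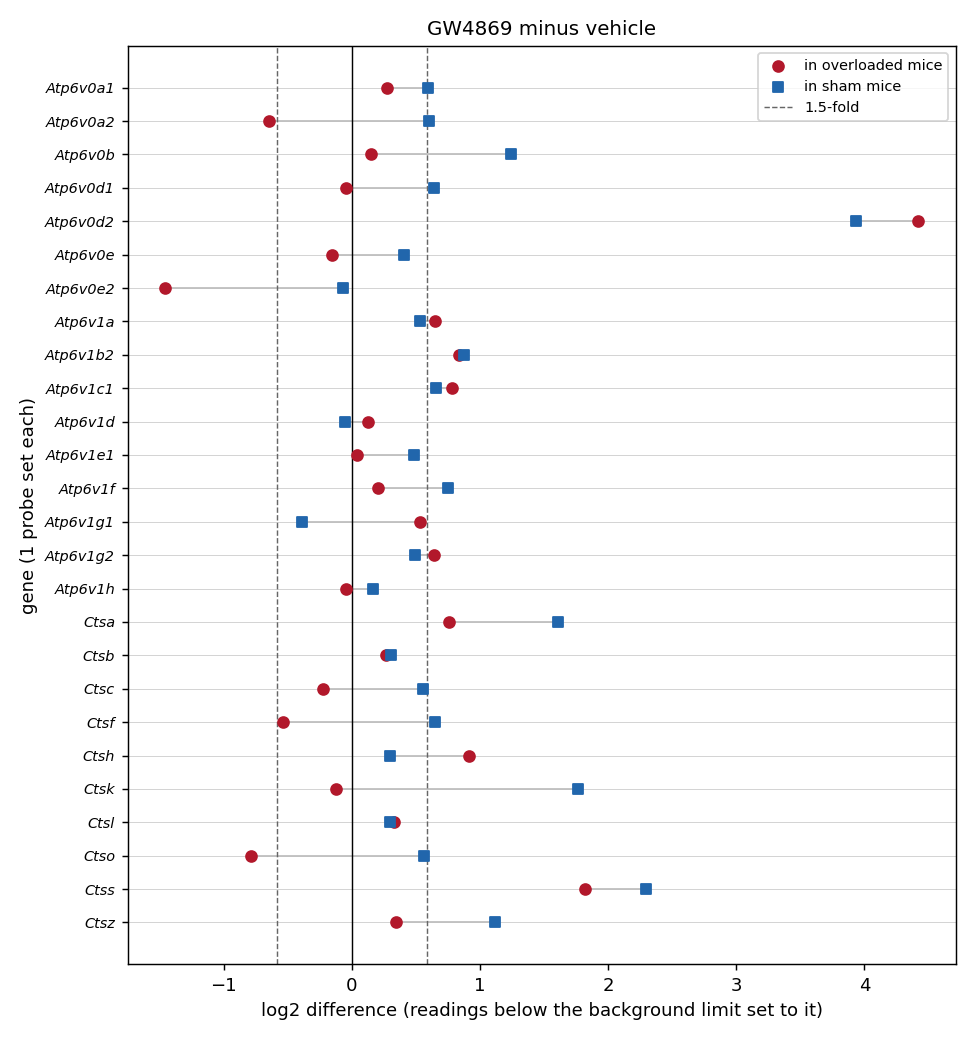
Log2 difference of GW4869 minus vehicle (horizontal axis) in overloaded mice (red circles) and sham mice (blue squares) for the 26 detected members, from 1 array per group. Dashed lines mark 1.5-fold, and Atp6v0d2, Ctss, Ctsa, Atp6v1b2 and Atp6v1c1 lie beyond it on the right in both kinds of mice.

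These comparisons use separate arrays, and 5 members were higher in both, namely Atp6v0d2, Atp6v1b2, Atp6v1c1, Ctsa and Ctss. They are 5 of the 8 higher in overloaded mice and 5 of the 13 higher in sham mice, while 0 members were lower in both. Of all named genes 2.78% were higher and 0.569% lower in both, and of those with a mean above the limit 6.16% and 1.26%. Centring the arrays on all named genes left Atp6v0d2, Atp6v1b2, Ctss and no other member of the 5 past 1.5-fold in overloaded mice.

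Atp6v0d2 encodes the d subunit form of osteoclasts, macrophages and some acid-secreting epithelia. Its log2 levels were 12.62 on GW4869 overload, 10.49 on GW4869 sham, 8.20 on vehicle overload and 6.55 on vehicle sham. It was high on both GW4869 arrays, and the vehicle sham reading was close to background. The differences between GW4869 and vehicle were 4.42 in overloaded and 3.94 in sham mice. Its counterpart Atp6v0d1, found in most cells, had 11.81, 12.20, 11.85 and 11.56 on the arrays in the same order. The differences for Atp6v0d1 were -0.04 in overloaded and 0.64 in sham mice, the latter called.

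Ctss encodes cathepsin S, which trims the invariant chain in antigen-presenting cells. It had 13.55 on GW4869 overload, 13.06 on GW4869 sham, 11.73 on vehicle overload and 10.76 on vehicle sham. Both GW4869 arrays stood above both vehicle arrays, by 1.82 in overloaded and 2.30 in sham mice. Of 7 measured markers of dendritic cells and antigen presentation, 3 were above the limit on each array. Under GW4869, 0 of the 7 were higher or lower in overloaded mice, and 2 (H2-Ab1 and H2-Eb1) were higher and 0 lower in sham mice. In overload, 0 were higher or lower under vehicle, and 0 were higher and 1 (H2-Ab1) lower under GW4869. Ctsa, a serine carboxypeptidase that also protects lysosomal neuraminidase, had 12.55 on GW4869 overload, 12.92 on GW4869 sham, 11.79 on vehicle overload and 11.31 on vehicle sham. The differences for Ctsa were 0.76 in overloaded and 1.61 in sham mice. Ctsz, a carboxypeptidase abundant in macrophages, had 12.53, 12.36, 12.19 and 11.24 in the same order. Under GW4869 Ctsz was 1.12 higher in sham mice, and the difference in overloaded mice was 0.34. Ctsh, an aminopeptidase, had 12.10, 12.03, 11.18 and 11.74, with differences of 0.91 in overloaded and 0.29 in sham mice. Ctsk and Ctsf, whose levels are given with the overload comparisons, were also called in sham mice, at 1.77 or more for Ctsk and 0.65 for Ctsf. In overloaded mice they had -0.12 and -0.54.

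Most macrophage markers were also higher under GW4869. Of 13 measured macrophage markers, all above the limit on both GW4869 arrays and on vehicle overload and 12 on vehicle sham, GW4869 came with 9 higher and 0 lower in overloaded mice. In sham mice 12 were higher and 1, Aif1, lower. The medians of the differences were 1.38 in overloaded and 1.59 in sham mice. The list's mean level was 11.63 on GW4869 overload, 11.33 on GW4869 sham, 10.49 on vehicle overload and 10.06 on vehicle sham. Gpnmb, a gene of lipid-laden macrophages and osteoclasts, had 14.53, 13.08, 9.50 and 7.66, the same order of arrays as Atp6v0d2. It is 1 of 8 measured lipid-laden macrophage markers. Under GW4869, 4 of the 8 were higher and 1, Acp5, lower in overloaded mice, and 6 were higher and 0 lower in sham mice. In overload under GW4869, where Atp6v0d2 was higher, 2 were higher and 3 (Trem2, Acp5 and Mmp12) lower. Acp5 had 15.35, 16.07, 16.35 and 15.49, a different order from Atp6v0d2. Lgmn, the protease that matures several cathepsins, was chosen after its values were seen and had 14.45, 13.79, 12.74 and 12.01. Adipocyte markers had medians of -0.79 in overloaded mice, with 0 of 17 higher and 11 lower, and 0.18 in sham mice. Smooth muscle markers had 5 of 8 higher and 0 lower in overloaded mice (median 1.52), and 1 higher and 1 lower in sham mice. Epididymal markers had 14 of 18 higher and 0 lower in overloaded mice (median 6.87), and 0 higher and 7 lower in sham mice. The part of macrophage number, or of these other cells, in the differences of Atp6v0d2 and the cathepsins was not tested. In whole tissue, more cells of a type and more RNA per cell cannot be told apart.

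**Figure D3:**
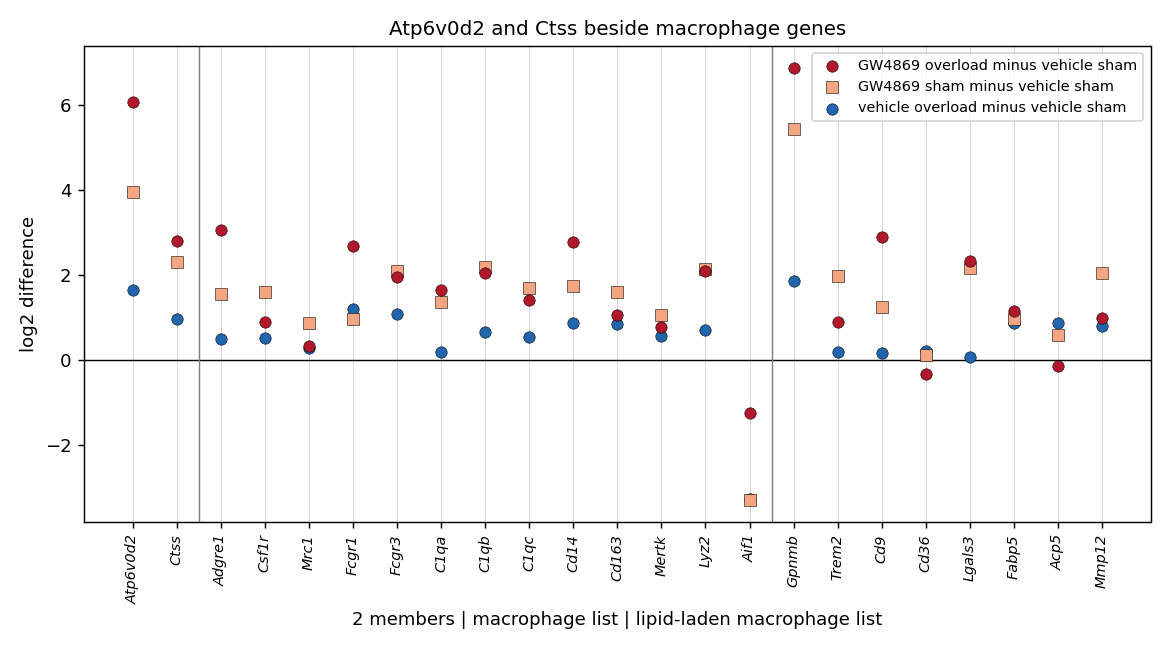
Log2 difference of each of the other 3 arrays from vehicle sham (vertical axis) for Atp6v0d2 and Ctss, 13 macrophage markers and 8 lipid-laden macrophage markers, with readings below the limit set to it. All 3 differences share the vehicle sham array. Atp6v0d2 and Gpnmb have the same order, with GW4869 overload above GW4869 sham above vehicle overload. Cd36 differs little between arrays, Acp5 is highest on vehicle overload and Aif1 is highest on vehicle sham.

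Of the V1 genes of most cells, Atp6v1b2 and Atp6v1c1 were higher in both GW4869 comparisons. Atp6v1b2, the B subunit form of most cells, had 12.02 on GW4869 overload, 11.55 on GW4869 sham, 11.18 on vehicle overload and 10.68 on vehicle sham. Its differences were 0.84 in overloaded and 0.87 in sham mice. Atp6v1c1, a C subunit that helps join V1 to V0, had 11.48, 11.14, 10.70 and 10.48 in that order, with differences of 0.78 and 0.66. Atp6v1a, the catalytic A subunit, had 10.29, 9.87, 9.64 and 9.34, and passed 1.5-fold in overloaded mice (0.65) and not in sham mice (0.53). The 3 genes had the same order of arrays. Of the 8 broad V1 genes, 3 (37.5%) were higher and 0 lower in each GW4869 comparison, Atp6v1f replacing Atp6v1a in sham mice with 0.75. The share of higher genes among all with a mean above the limit was 16.1% in overloaded and 28.5% in sham mice. The other 4, Atp6v1d, Atp6v1e1, Atp6v1g1 and Atp6v1h, passed in neither comparison. Of the calls in overloaded mice, those of Atp6v1a and Atp6v1c1 were lost with all-gene centring.

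Broad V0 genes differed between the surgeries. In sham mice 4 of 6 were higher under GW4869 and 0 lower, with a median difference of 0.60, against 28.5%, 10.6% and 0.29 for all genes with a mean above the limit. Atp6v0b had at least 1.24, and Atp6v0a1 (0.60), Atp6v0a2 (0.61) and Atp6v0d1 (0.64) were just past the threshold. The last 3 calls, and those of Atp6v1c1 and Ctsf in sham mice, were lost with arrays centred on adipocyte genes. In overloaded mice 0 of 6 were higher and 2 lower, with a median of -0.10, against 16.1%, 18.4% and -0.05. These were Atp6v0a2 (-0.65), an a subunit of Golgi and endosomes, and Atp6v0e2 (-1.46), a small membrane subunit. The Atp6v0a2 call was lost with adipocyte centring. Of the cathepsins, Ctso alone was lower under GW4869 in overloaded mice, at -0.79. These differences between surgeries were not tested.

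Overload under vehicle came with 10 members higher than sham and 0 lower, against 13.8% and 9.3% of all named genes. The members' share was 25.6% of 39, and 38.5% of the 26 with a mean above the limit, where 30.3% of genes were higher and 12.5% lower. The last shares are near each other. The median difference was 0.13 for pump genes and 0.00 for cathepsins, or 0.30 and 0.54 over those with a mean above the limit, against 0.28 for all such genes. Overload under vehicle and GW4869 in sham mice both subtract the vehicle sham array, which carried sperm RNA, so the members higher in both are not separate evidence. Adipocyte markers had 9 of 17 higher and 0 lower in overload under vehicle (median 0.60), and macrophage markers 6 of 13 higher and 1 lower (median 0.57). Smooth muscle markers had 0 of 8 higher and 7 lower (median -3.45). The part of these cells in the members' differences was not tested.

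Overload under GW4869 came with 2 members higher and 4 lower, against 5.68% and 6.69% of all named genes. The members' shares were 5.13% and 10.3%. Among the 26 with a mean above the limit they were 7.69% and 15.4%, against 10.7% and 14.4% of genes. The median difference was 0.00 for both families, or 0.15 for pump genes and -0.08 for cathepsins with a mean above the limit, against -0.04. Adipocyte markers had 0 of 17 higher and 3 lower (median -0.24), macrophage markers 4 of 13 higher and 1 lower (median -0.13) and smooth muscle markers 0 of 8 higher and 7 lower (median -2.05), and their part was not tested.

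**Figure D4:**
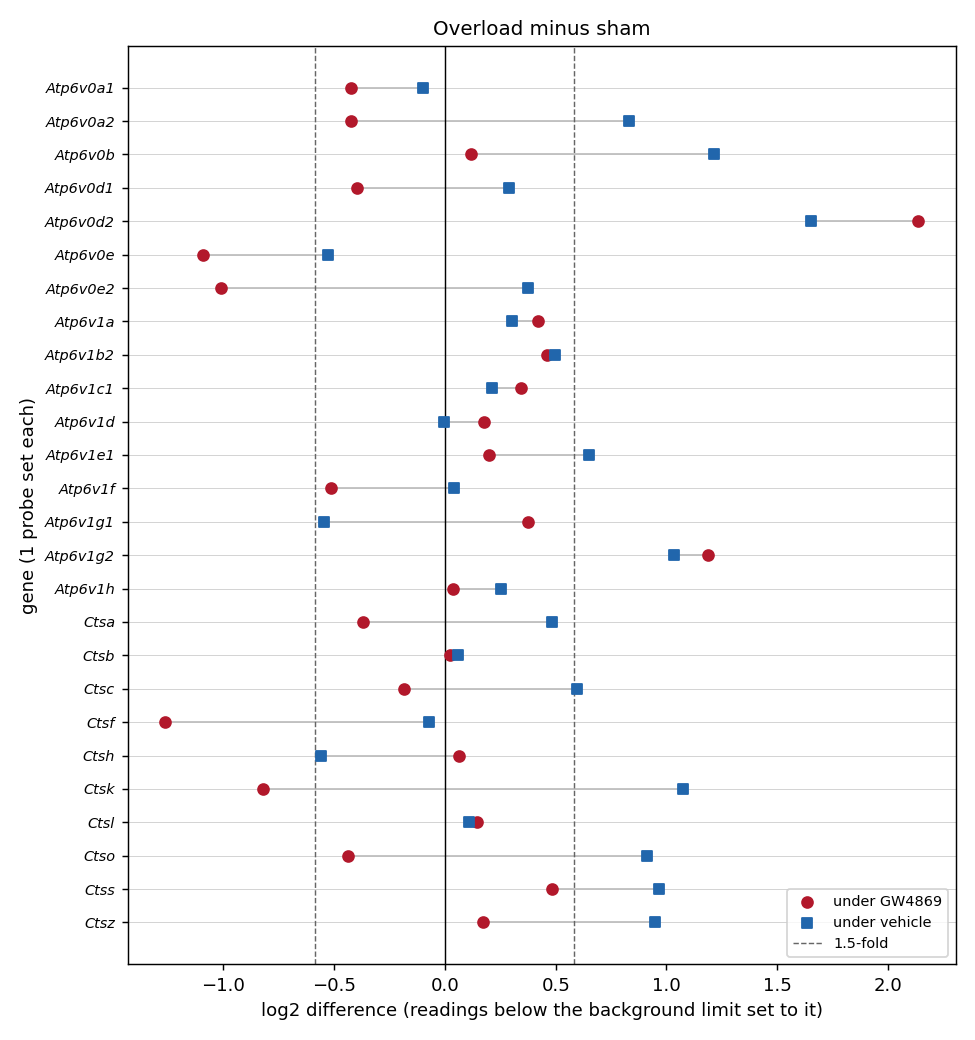
Log2 difference of overload minus sham (horizontal axis) under GW4869 (red circles) and under vehicle (blue squares) for the 26 detected members, from 1 array per group. Dashed lines mark 1.5-fold. Atp6v0d2 and Atp6v1g2 lie beyond it on the right under both treatments, and Ctsk lies beyond it on opposite sides.

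Atp6v0d2 and Atp6v1g2 were higher in overload under both treatments. They were 2 of the 2 higher under GW4869 and 2 of the 10 higher under vehicle, and 0 members were lower under both. Of all named genes 1.07% were higher and 0.733% lower in both, and of those with a mean above the limit 2.36% and 1.57%. For Atp6v0d2 the overload difference was 2.13 under GW4869 and 1.65 under vehicle. Atp6v1g2 had log2 levels of 8.07 on GW4869 overload, 6.89 on GW4869 sham, 7.43 on vehicle overload and 5.37 on vehicle sham. Both overload arrays stood above both sham arrays, but the GW4869 sham reading was below the brightest background row. The overload difference of Atp6v1g2 was 1.19 under GW4869 and at least 1.04 under vehicle. Its difference between GW4869 and vehicle was 0.64 in overloaded mice, lost with all-gene centring, and at least 0.49 in sham mice.

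Of the other 8 members higher in overload under vehicle, 5 were cathepsins. Ctsk, the collagen-cutting protease of osteoclasts, had 7.35 on GW4869 overload, 8.16 on GW4869 sham, 7.47 on vehicle overload and 6.32 on vehicle sham. It was at least 1.07 higher in overload under vehicle and had a difference of -0.82 under GW4869. Ctss was 0.96 higher under vehicle, with 0.49 under GW4869, and Ctsz was 0.95 higher, with 0.17. Ctso, a little-studied cysteine protease, had 10.88, 11.31, 11.66 and 10.75 on the arrays in the order given, with differences of -0.44 under GW4869 and 0.91 under vehicle. Ctsc, which activates granule proteases of leukocytes, had 15.89, 16.08, 16.12 and 15.52, with -0.19 and 0.60. The remaining calls were pump genes. Atp6v0b, part of the proton-carrying ring, had 7.76, 7.64, 7.61 and 6.33, and its difference was 0.12 under GW4869 and at least 1.21 under vehicle. For Atp6v0b the vehicle sham array alone stood low. Atp6v0a2 (9.25, 9.67, 9.90 and 9.07) was 0.83 higher under vehicle, with -0.42 under GW4869. Atp6v1e1, a stalk subunit (11.72, 11.52, 11.68 and 11.03), was 0.65 higher, with 0.20 under GW4869. The vehicle calls of Atp6v0a2, Atp6v1e1, Ctsc and Ctso were lost with adipocyte centring.

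The members lower in overload under GW4869 were Ctsf, Atp6v0e, Atp6v0e2 and Ctsk. Ctsf, a cysteine protease that can process the invariant chain in macrophages, had 8.15 on GW4869 overload, 9.41 on GW4869 sham, 8.69 on vehicle overload and 8.76 on vehicle sham. Its overload difference was -1.26 under GW4869 and -0.07 under vehicle. Atp6v0e and Atp6v0e2 encode alternative forms of the same small V0 subunit. Atp6v0e had 10.57, 11.67, 10.73 and 11.26, with differences of -1.09 under GW4869 and -0.52 under vehicle. Atp6v0e2 had 7.95, 8.96, 9.41 and 9.03, with -1.01 and 0.38. For Atp6v0e2 the GW4869 overload array alone stood low. The epididymal list had its highest levels on that array, and its part in these differences was not tested.

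3 pump forms of acid-secreting epithelia were below the limit on every array, while Atp6v0d2, also found in some such epithelia, had its highest level, 12.62, on GW4869 overload. Atp6v1b1, Atp6v0a4 and Atp6v1g3 are known from the proton-secreting clear cells of the epididymis and the intercalated cells of the kidney. On GW4869 overload, where Gpx5 of epididymal epithelium read 19.53, they had 3.45, 5.70 and 3.78, below the limit. On the other 3 arrays Atp6v1b1 ran between 2.86 and 4.33, Atp6v0a4 between 4.56 and 4.87 and Atp6v1g3 between 3.49 and 4.30. Foxi1, the factor that defines such cells, had 6.03, 3.63, 3.84 and 4.81, also below the limit on every array. Car2, a carbonic anhydrase they use that many other cells make, had 9.27 on GW4869 overload and 10.59 on vehicle sham, and was below the limit on the other 2 arrays. Foxi1 and Car2 belong to a list of 7 epithelial acid and base markers. Of these, 3 were above the limit on GW4869 overload, 2 on GW4869 sham, 2 on vehicle overload and 3 on vehicle sham. Car4 was lower under GW4869 in overloaded and in sham mice, and Slc4a4 was higher in overload under both treatments. Atp6v1c2 was below the limit throughout, at 3.50 to 4.22.

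Atp6v1e2 encodes a testis form of the E subunit. It read 5.96 on vehicle sham, the array with sperm RNA, and 3.85 on GW4869 overload, 3.66 on GW4869 sham and 3.94 on vehicle overload. All 4 readings lay below the limit, so the higher vehicle sham value is within background. Atp6v1fnb had 2.14 to 3.64.

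The 7 cathepsins of restricted tissues were below the limit on all 4 arrays, at 1.90 to 4.42. They are Ctse of stomach and some immune cells, Ctsg of neutrophil and mast cell granules, Ctsw of cytotoxic T and NK cells, and the placental Ctsj, Ctsm, Ctsq and Ctsr. The T and NK cell list had 0 of 10 markers above the limit on any array. Neutrophil markers had 4 of 9 above it on GW4869 overload and 0 on the others, and mast cell markers had 5 of 9 on GW4869 overload and 4 on each other array, while Ctsg read 1.97, 2.26, 2.43 and 1.90.

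**Figure D5:**
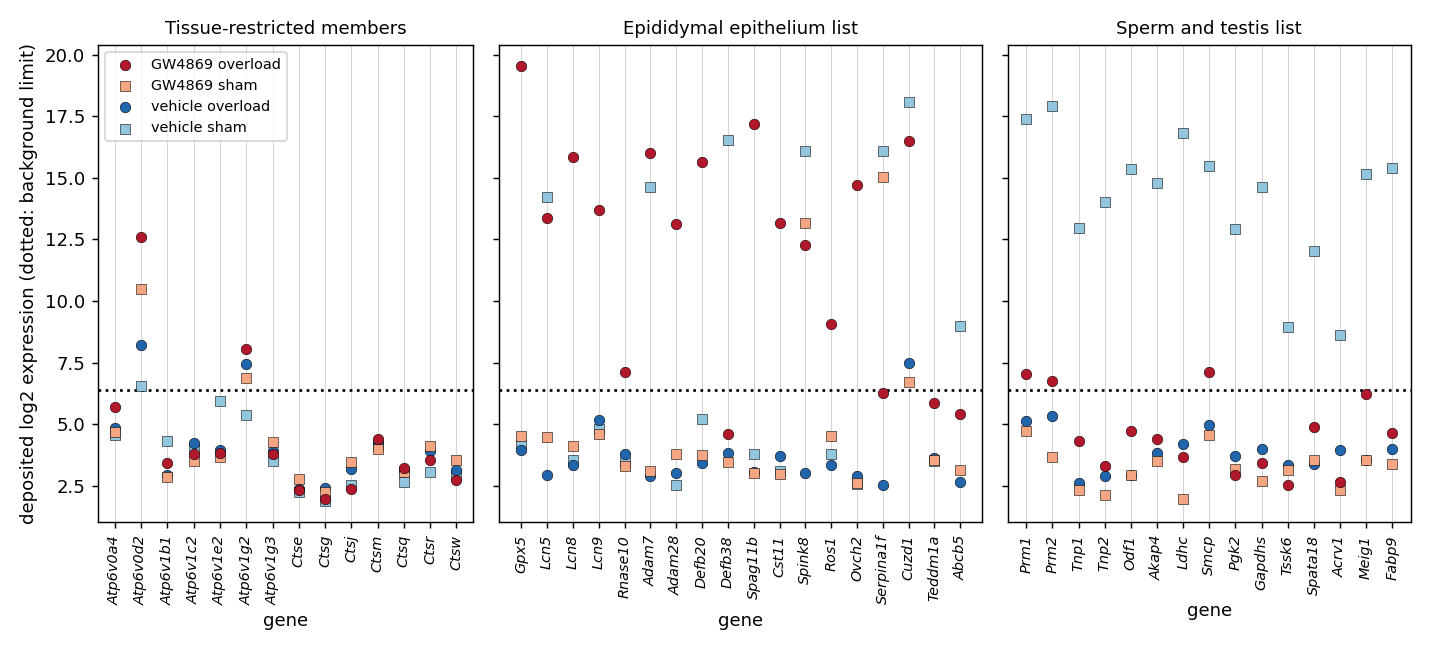
Deposited log2 expression (vertical axis) of the 14 tissue-restricted members, 18 epididymal markers and 15 sperm and testis markers, with 1 point per array. The dotted line is the background limit of 6.40. Among the members Atp6v0d2 and Atp6v1g2 are the only ones above it, although many epididymal markers are far above it on GW4869 overload and all sperm markers on vehicle sham.

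Other lysosomal genes were set beside the members. Among all genes with a mean above the limit, GW4869 came with 16.1% higher and 18.4% lower in overloaded mice (median -0.05) and 28.5% higher and 10.6% lower in sham mice (median 0.29). Overload came with 10.7% higher and 14.4% lower under GW4869 (median -0.04) and 30.3% higher and 12.5% lower under vehicle (median 0.28). Counts and medians of the lists are over all their measured genes, and shares over those with a mean above the limit. Of 12 partners and assembly factors of the pump, GW4869 came with 4 higher and 0 lower in overloaded mice, and 6 higher and 1 lower in sham mice. Overload came with 2 higher and 0 lower under GW4869, and 4 higher and 1 lower under vehicle. The 4 higher under vehicle were 36.4% of the 11 partners above the limit, near the share of all genes. Rogdi, which belongs to a complex that assembles pumps, had 9.25 on GW4869 overload, 8.80 on GW4869 sham, 8.21 on vehicle overload and 9.52 on vehicle sham, and its overload difference under vehicle was -1.32. Vma21, an assembly factor of V0, was 0.85 higher in overload under vehicle, and Clcn7, the lysosomal chloride exchanger, was 0.84 higher in overload under GW4869. Ostm1, the partner of Clcn7, was 0.73 higher in overload under vehicle. Tcirg1, added because it encodes the a3 subunit of osteoclast and macrophage pumps under another symbol, had 7.98, 7.55, 6.64 and 5.87 in the order of arrays above. It was 1.35 higher under GW4869 in overloaded mice and at least 1.15 higher in sham mice.

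Of 28 lysosomal hydrolases and their cofactors, 17 were higher and 1 lower under GW4869 in sham mice, with a median difference of 0.70. In overloaded mice 5 were higher and 1 lower, with a median of 0.12. Of the 26 above the limit, 65.4% and 19.2% were higher in sham and in overloaded mice, the second share near that of all genes. Overload came with 2 higher and 3 lower under GW4869 and 7 higher and 3 lower under vehicle, the 7 being 26.9%, below the share of all genes. Man2b1, a mannosidase, had -0.95 in overload under vehicle, and Npc2, a cholesterol carrier that is also abundant in epididymal fluid, had -0.90. Galc, which degrades galactosylceramide, was at least 0.94 higher in overload under vehicle, and Neu1, the neuraminidase protected by cathepsin A, was 0.90 higher in overload under GW4869. The GW4869 sham reading of Neu1, 6.55, lay below the brightest background row, and both its vehicle readings lay below the limit. Of 14 lysosomal membrane proteins and regulators, 2 were higher and 0 lower under GW4869 in overloaded mice and 6 and 0 in sham mice. Of the 12 above the limit the higher ones were 16.7% in overloaded mice, near the share of all genes, and 50.0% in sham mice. For overload, 0 were higher and 1 lower under GW4869, and 4 and 0 under vehicle. The 4 were 33.3% of the 12 above the limit, near the share of all genes. Mitf, a TFEB relative that drives Ctsk and Gpnmb in osteoclasts and macrophages, had 7.58, 8.44, 7.97 and 6.71. Its overload difference was -0.86 under GW4869 and 1.26 under vehicle, opposite directions as for Ctsk. Gpnmb differed from both, being higher in overload under both treatments. The vehicle sham reading of Mitf lay below the brightest background row (7.20). Any part of Mitf in the differences of Ctsk and Gpnmb was not tested. Npc1 (0.94), Scarb2 (0.89) and Mcoln1 (0.64), a cholesterol exporter, a membrane receptor and a calcium channel, were higher in overload under vehicle. Tfeb itself was below the limit on every array.

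Of 7 cathepsin inhibitors, 4 were above the limit on every array. Cstb, the cytosolic cystatin B, had 11.76 on GW4869 overload, 10.51 on GW4869 sham, 10.03 on vehicle overload and 9.76 on vehicle sham. It was higher under GW4869 by 1.73 in overloaded and 0.75 in sham mice. Cst3, the secreted cystatin C, had 17.09, 17.15, 16.85 and 17.16, and Serpinb6a and Serpinb9 differed by at most 0.56 in any comparison.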

How the data were processed

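Expression in epididymal fat was measured on 4 Clariom S Mouse arrays, 1 per group, with groups taken from the sample titles. The authors deposited log2 values per probe set, and the submitters' processing notes name RMA and Partek. The sources used here do not give versions, settings, between-array scaling or genome build. Of 28846 rows, 19572 probe sets had 1 gene symbol, and the one with the highest mean was kept for each of 19505 genes. Every member matched its RefSeq symbol. Differences were subtractions of log2 values after readings below the background limit were set to it, and calls at 1.5-fold were counted. The counting was tested on simulated data with 200 changed genes. Members and lists were chosen with earlier results of these data known. Levels are given for members called in an overload comparison and restricted members, up to 4 genes per pathway list by overload difference, and others described as examples. Alternatives covered the limit, array centring, quantile normalization, probe set choice and leaving out restricted members. Python 3.11.15, pandas 2.3.3, numpy 2.4.6 and matplotlib 3.10.9 were used.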

Additional observations from a re-analysis of the deposited data

Results flagged for a closer look

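Ctsk was past 1.5-fold in opposite directions in the overload comparisons, at -0.82 under GW4869 and at least 1.07 under vehicle. The difference between these values is -1.89 with the vehicle sham reading of Ctsk set to the limit, so it is also a bound, and it was not tested. The Ctsk readings on GW4869 overload (7.35) and vehicle overload (7.47) lay just above the brightest background row (7.20). Atp6v0a2 was past it in opposite directions in the GW4869 comparisons, at -0.65 in overloaded and 0.61 in sham mice. The difference between these is -1.25, also not tested. Each value rests on 1 array per group.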

How the results depend on the processing

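With 1 array per group no array can be left out, and the precision of each difference is unknown. No paired analysis was possible because each group has 1 array and no test was made. The 39 members made 40 calls over the 4 comparisons. Under the 6 alternatives of limit, scaling and probe set, 26 of these calls held throughout, 14 were lost under at least 1, and 0 changed sign. For Atp6v0d2 the calls held in all 4 comparisons, and for Ctss in the 3 where it was called. Centring on all named genes added 0.47 to each difference for overload under vehicle, 0.36 for GW4869 in sham mice, -0.10 for overload under GW4869 and -0.22 for GW4869 in overloaded mice. Centring on adipocyte genes added -0.35, -0.08, -0.11 and 0.16. The share of higher genes among all called was 59.7% for overload under vehicle, against 80.4% and 31.3% with these centrings. For GW4869 in sham mice it was 60.8%, against 79.3% and 54.0%. It was 49.3% for GW4869 in overloaded mice, against 28.9% and 64.7%, and 45.9% for overload under GW4869, against 33.7% and 33.0%.

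With all-gene centring, 11 pump genes were higher in overload under vehicle, 10 cathepsins were higher under GW4869 in sham mice, and in overloaded mice 2 pump genes were higher and 2 cathepsins lower under GW4869. With adipocyte centring, 3 pump genes and 3 cathepsins were higher and 2 pump genes and 1 cathepsin lower in overload under vehicle. Under GW4869, 4 pump genes were then higher in sham mice and 1 lower in overloaded mice. With quantile normalization 2 cathepsins were lower under GW4869 in overloaded mice. With values as deposited and no limit, differences between readings below the background limit were also called. Then 3 pump genes were lower in overload under vehicle and 3 under GW4869 in sham mice, 4 cathepsins were lower in overload under GW4869 and 2 under GW4869 in overloaded mice, and 8 cathepsins were higher under GW4869 in sham mice. With the limit at log2 4.67, 1 pump gene was lower in overload under vehicle and 1 under GW4869 in sham mice. Pump genes called higher then went from 2 to 3 in overload under GW4869. Under GW4869 they went from 5 to 6 in overloaded mice and from 8 to 9 in sham mice. Atp6v0a4 was added in overload under GW4869 (0.996) and under GW4869 in overloaded mice (0.83), and Atp6v1g2 in sham mice (1.51). Without tissue-restricted members, 0 pump genes were higher in overload under GW4869, 3 in overload under vehicle and 3 under GW4869 in overloaded mice. The median over cathepsins of the overload difference under GW4869 minus that under vehicle was 0.00, but -0.78 with values as deposited and -0.78 without restricted members, since 7 of 17 cathepsins lay at the limit. Taking the mean of probe sets changed 0 members' values.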
